A study of Mus musculus with 10 samples.

Results

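The SLC25 genes encode the mitochondrial carriers, and all genes whose symbol starts with Slc25a were followed through liver RNA-seq of mice carrying the S400D mutation of HtrA2/Omi. They number 46 of the 19271 genes of the deposited table and were taken by symbol alone, with the 182 listed transcripts of these genes summed per gene. RefSeq lists 47 mouse genes with such a symbol, and Slc25a54 was not analysed here. HtrA2/Omi is a serine protease of the mitochondrial intermembrane space, encoded by Htra2, and S400D puts an aspartate in place of a serine. Livers came from 10 mice of strain C57BL6/N aged 2 months: 1 homozygous S400D/S400D female, 3 homozygous S400D/S400D males, 3 heterozygous S400D/WT males and 3 WT/WT males. The labels give neither a WT/WT female nor a litter, a collection time or a batch. Nothing in them says more of the animals than a separate sample each, so p-values measure the spread between these livers.

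Mitochondrial carriers are small membrane proteins with a repeated fold that move metabolites, nucleotides and cofactors across the inner membrane, mostly by exchange. Most of them are made in the cytosol without a cleaved presequence and reach the inner membrane through the TOM70 receptor, the small TIM chaperones of the intermembrane space and the TIM22 complex. In liver they serve, among other routes, the export of ATP and citrate, the urea cycle, the malate-aspartate shuttle and the entry of acylcarnitines for fatty acid oxidation.

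Each library held between 16240441 and 17264289 expected counts, which are the authors' estimated read counts per transcript. Levels between libraries are given as CPM, counts scaled to library size with edgeR's TMM factors, and levels between genes as the authors' TPM, which are adjusted for transcript length. Htra2 itself measured 13.7 CPM in the S400D/S400D female, 14.6, 15.6 and 14.5 CPM in S400D/S400D males, 15.2, 16.7 and 15.7 CPM in S400D/WT males and 17.3, 12.3 and 12.6 CPM in WT/WT males, so that the male groups overlapped and the female lay within the range of WT/WT males; S400D is a substitution, which gene-level counts do not show. The clock genes Arntl and Dbp set libraries apart. Arntl, a clock activator, measured 1.59 CPM in the S400D/S400D female, 17.4, 26.1 and 38.1 CPM in S400D/S400D males, 1.17, 31.5 and 2.59 CPM in S400D/WT males and 2.64, 2.45 and 4.25 CPM in WT/WT males, and Dbp, whose transcript cycles in the opposite phase, measured 205 CPM in the S400D/S400D female, 4.63, 12.9 and 1.27 CPM in S400D/S400D males, 247, 6.02 and 105 CPM in S400D/WT males and 128, 148 and 158 CPM in WT/WT males. The homozygous males and the second heterozygous male thus had high Arntl and low Dbp, and the other 6 libraries the reverse. All 10 hepatocyte markers were detected, with summed levels of 122900 CPM in the female, 124500 to 146400 CPM in homozygous males, 84610 to 110100 CPM in heterozygous males and 105000 to 119700 CPM in WT/WT males. Alb held most of each sum, with 84680 to 106100 CPM in homozygous and 70040 to 79960 CPM in WT/WT males. Of the 10, 6 had higher and 4 lower fitted levels in homozygous than in WT/WT males (50.7% and 49.3% of all genes tested). In edgeR 0 of them had an unadjusted p under 0.05. Of the other cell types, the 11 macrophage and Kupffer cell markers all had higher fitted levels in homozygous than in WT/WT males, as did all 8 sinusoidal endothelial markers and 7 of 8 stellate cell and matrix markers, none at an adjusted p under 0.05 (50.7% of all genes tested were higher). Their summed ranges overlapped, at 472 to 513 CPM in homozygous against 177 to 560 CPM in WT/WT males for macrophages, 246 to 248 against 107 to 262 CPM for endothelium and 234 to 445 against 110 to 290 CPM for stellate cells. The summed erythroid markers were 1733 CPM in the third heterozygous male and 1981 CPM in the first WT/WT male, and 161 to 503 CPM in the other 8 libraries. Skeletal muscle markers summed to at most 0.394 CPM and adipose markers to at most 0.0571 CPM in any library. The part of the clock state and of these cell markers in the differences reported here was not tested.

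Of the 46 carriers, 8 made up 72.3% of the summed carrier TPM in WT/WT livers. Slc25a5, adenine nucleotide translocase 2 that exchanges ADP for ATP, led with 529 ± 45.5 TPM (SD, n = 3 here and in the values that follow) or 18.0% of the carrier total, and ranked 271 among all genes. Slc25a47, a carrier found chiefly in liver, followed with 407 ± 44.3 TPM, then Slc25a3, the phosphate carrier, with 318 ± 25.5 TPM and Slc25a39, a glutathione carrier, with 282 ± 10.7 TPM. After these came Slc25a1, the citrate carrier (175 ± 22.8 TPM), Slc25a15, the ornithine carrier of the urea cycle (149 ± 6.69 TPM), Slc25a23, an ATP-Mg/phosphate carrier (137 ± 21.3 TPM), and Slc25a22, a glutamate carrier (125 ± 4.15 TPM). The ranges of Slc25a5 and Slc25a47 did not overlap in WT/WT males, nor did those of Slc25a47 and Slc25a3 or of Slc25a39 and Slc25a1, while Slc25a3 overlapped Slc25a39 and each of Slc25a1, Slc25a15, Slc25a23 and Slc25a22 overlapped the next in order. At the other end, 9 carriers lay under 1 TPM on average.

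**Figure D1:**
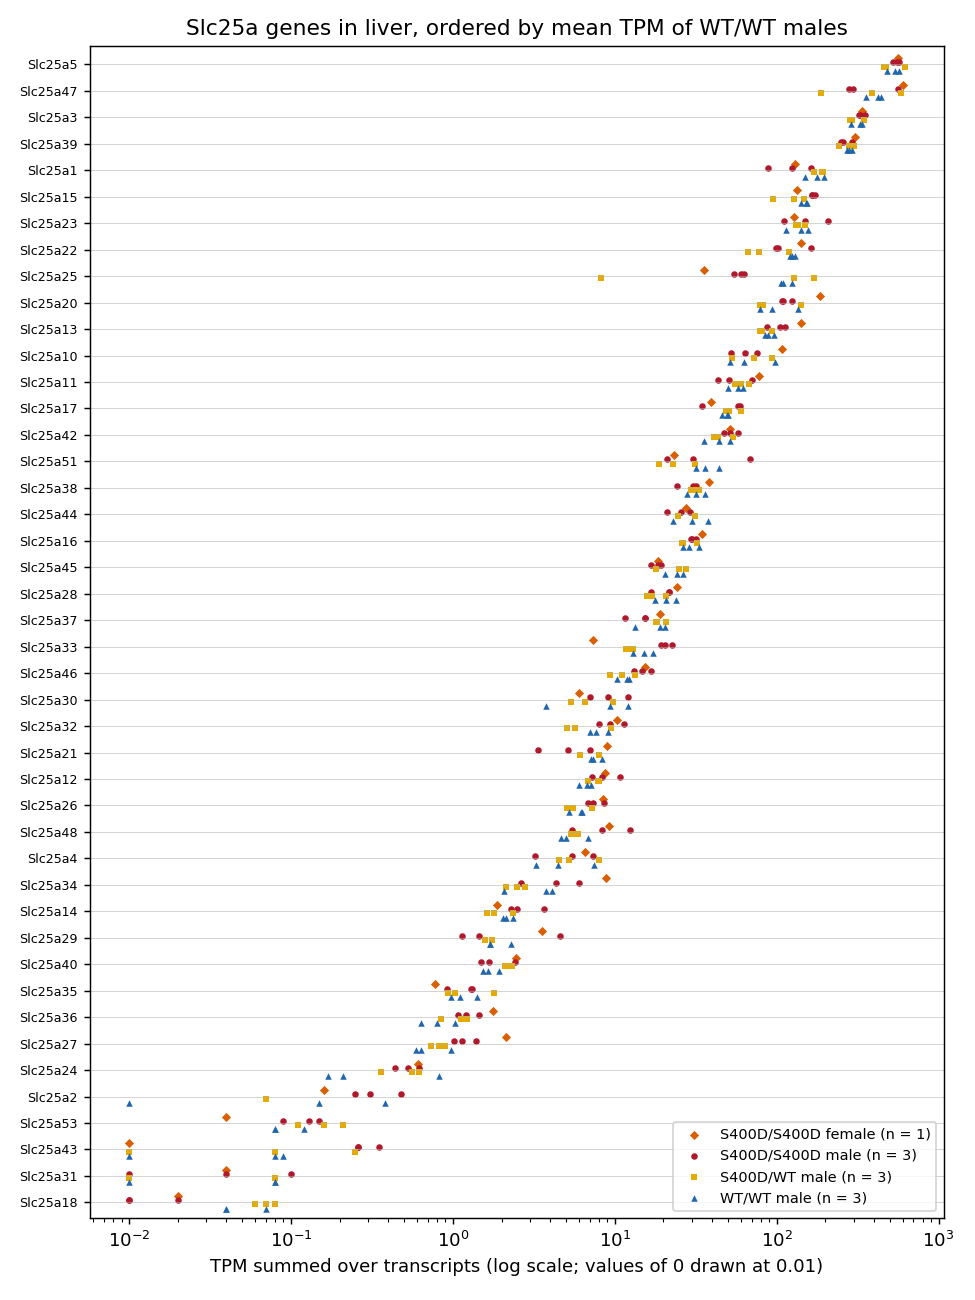
Level of Slc25a genes in each of the 10 livers, as the authors' TPM summed over transcripts on a log axis, with genes ordered from top to bottom by the mean of the 3 WT/WT males; Slc25a41, at 0 in every library, is not drawn. Slc25a5 stands at the top at 529 TPM and Slc25a18 at the bottom, and Slc25a25 of 1 heterozygous male lies far left of its other values.

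Summed over all members, carriers held 3276 TPM in the S400D/S400D female, 2885 ± 174 TPM in S400D/S400D males, 2804 ± 539 TPM in S400D/WT males and 2933 ± 228 TPM in WT/WT males (SD, n = 3 for each male group). Single male libraries lay between 2430 and 3422 TPM, and the ranges of the 3 male groups overlapped. By role, carriers of adenine nucleotides and phosphate held 37.6% of the WT/WT total, those of cofactors, nucleotides, glutathione and methyl donors 16.4%, the little characterised or outer membrane members 15.4%, those of aspartate, glutamate and basic amino acids 12.7% and the di- and tricarboxylate carriers 10.6%. The 3 carriers of acylcarnitine, glycine and branched-chain amino acids held 5.63%, the 2 iron carriers 1.31% and the 3 uncoupling-protein-like members 0.385%.

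Where several carriers share a substrate, 1 member usually supplied nearly all of the transcript in these livers. Slc25a5 was 98.6 to 99.4% of the TPM of the 3 adenine nucleotide translocases over the 10 libraries, with the heart and muscle form Slc25a4 at 0.573 to 1.36% and the germ-cell form Slc25a31 at 0 to 0.0189%. Slc25a13, citrin, the liver aspartate-glutamate carrier, was 89.0 to 94.2% of its pair with Slc25a12, the form of brain and muscle. Slc25a22 was 99.9 to 100% of the 2 glutamate carriers, Slc25a15 97.1 to 99.2% of the ornithine carriers and Slc25a39 99.1 to 99.5% of the pair with Slc25a40. The mitoferrins were closer to parity, with Slc25a28 (mitoferrin 2) at 46.7 to 65.2% and Slc25a37 (mitoferrin 1) at 34.9 to 53.3%. The ATP-Mg/phosphate carriers varied most, with Slc25a23 at 46.8 to 93.9% and Slc25a25 at 5.86 to 53.0% of the TPM of 4 members. Slc25a33 was 80.4% of the 2 pyrimidine nucleotide carriers in the homozygous female and 91.3 to 96.0% in the males, with Slc25a36 making up the rest.

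Carriers that lie next to each other on a chromosome were not alike in level. Slc25a29 (chr12:108825878-108835876, GRCm38.p6 here and throughout), a carrier of basic amino acids, and Slc25a47 (chr12:108849833-108856815) are 13956 bases apart and averaged 1.89 and 407 TPM in WT/WT males. Slc25a41 (chr17:57032772-57041654) ends 2056 bases from Slc25a23 (chr17:57043711-57059909), yet was at 0 reads in every library, where 3 counts would be 0.174 to 0.185 CPM, while Slc25a23 averaged 137 TPM. Slc25a43 (chrX:36743570-36777307) and Slc25a5 (chrX:36795597-36798808), 18289 bases apart, averaged 0.0567 and 529 TPM. The other 4 members under the filter on low counts, Slc25a2, Slc25a53, Slc25a31 and Slc25a18, had 25, 45, 10 and 18 counts in all over the 10 libraries, and Slc25a43 had 17. The filter removed these 6 from the test. In edgeR without the filter 5 of them were tested, and between homozygous and WT/WT males Slc25a43 was higher with an unadjusted p of 0.0452 (adjusted p = 0.399) and Slc25a18 lower with an unadjusted p of 0.0298 (adjusted p = 0.352), against 0.103 and 0.0741 in DESeq2.

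Between male genotypes no carrier passed the threshold of an adjusted p of 0.05 in edgeR's quasi-likelihood test, fitted over all 12427 genes with Benjamini-Hochberg adjustment. The filter on low counts left 40 of 46 carriers. Among all genes tested, 0% passed in either direction in each of the 3 comparisons of males. The smallest adjusted p of a carrier was 0.227 for homozygous against WT/WT males, 0.972 for heterozygous against WT/WT males and 0.104 for homozygous against heterozygous males. Only DESeq2, one of 3 tools run on the counts, placed a carrier past the threshold, Slc25a33 between homozygous and heterozygous males; DESeq2 called 4.18% of all genes with an adjusted p in that comparison. Between homozygous and WT/WT males it called 0 carriers, against 2.58% of all genes, and between heterozygous and WT/WT males 0 carriers, against 0.0599%. With limma-voom 0 carriers were called in any comparison of males. In bulk liver, fewer cells of a type and less RNA per cell cannot be told apart.

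At an unadjusted p under 0.05, 5 of 40 carriers were lower in homozygous than in WT/WT males (12.5%, against 8.08% of all genes tested) and 2 were higher (5%, against 6.82%). The 5 were Slc25a1, Slc25a38, Slc25a37, Slc25a45 and Slc25a21, and the 2 were Slc25a33 and Slc25a27. Between heterozygous and WT/WT males 3 carriers were lower, Slc25a15, Slc25a22 and Slc25a33 (7.5%, against 2.52%), and 0 were higher (against 1.67%). Between homozygous and heterozygous males the same 5 carriers as against WT/WT were lower (12.5%, against 8.92%), and Slc25a15, Slc25a46, Slc25a34 and Slc25a33 were higher (10%, against 8.25%). These comparisons share their control animals and are given side by side only. The counts rest in part on single livers. Without the third WT/WT male 3 carriers instead of 5 were lower in homozygous than in WT/WT males, and without the second 0 instead of 2 were higher. Over all genes tested, those at this p in either direction also fell, from 1852 of 12427 to 1378 of 12603 and 1121 of 12600. The count of 3 for heterozygous against WT/WT males was 5 without the first and 1 without the second WT/WT male, and the count of 9 for homozygous against heterozygous males was 5 without the second heterozygous male. For these comparisons the counts over all genes in the same omissions are not given, so the shifts cannot be called particular to carriers. Of these 19 differences between male genotypes, 7 kept an unadjusted p under 0.05 whichever male was left out: Slc25a1, Slc25a21 and Slc25a45 in homozygous against WT/WT males, Slc25a33 in heterozygous against WT/WT males, and Slc25a1, Slc25a37 and Slc25a33 in homozygous against heterozygous males. By the sign of the fold change alone, 24 carriers were lower and 16 higher in homozygous than in WT/WT males (49.3% and 50.7% of all genes), 25 were lower and 15 higher in heterozygous than in WT/WT males (48.4% and 51.6%), and 19 were lower and 21 higher in homozygous than in heterozygous males (49.6% and 50.4%). The median log2 fold change of the 40 carriers was -0.08 for homozygous against WT/WT males (0.00 over all genes), -0.07 for heterozygous against WT/WT males (0.01) and 0.04 for homozygous against heterozygous males (0.00).

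Counted by the values themselves, 8 carriers had all 3 homozygous males under all 3 WT/WT males in CPM (11.5% of all genes tested did so) and 4 had them all above (9.26% of all genes). The 8 were Slc25a5, Slc25a39, Slc25a25, Slc25a38, Slc25a16, Slc25a37, Slc25a45 and Slc25a21, and the 4 were Slc25a46, Slc25a33, Slc25a36 and Slc25a27. This split depended on the scaling. In the authors' TPM 3 carriers lay wholly lower (3.63% of genes) and 7 wholly higher (19.1%), and in CPM without TMM factors 5 lay lower (7.24%) and 4 higher (12.2%). For heterozygous against WT/WT males 5 carriers lay wholly lower (5.81% of genes) and 0 wholly higher (4.56%), against 2 and 1 in TPM (2.95% and 4.27%) and 3 and 3 in CPM without TMM factors (2.68% and 8.26%). The 5 were Slc25a15, Slc25a22, Slc25a13, Slc25a51 and Slc25a33. For homozygous against heterozygous males 5 lay wholly lower (11.7%) and 3 wholly higher (10.7%), against 2 and 3 in TPM (4.75% and 18.8%) and 4 and 3 in CPM without TMM factors (12.7% and 9.2%).

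**Figure D2:**
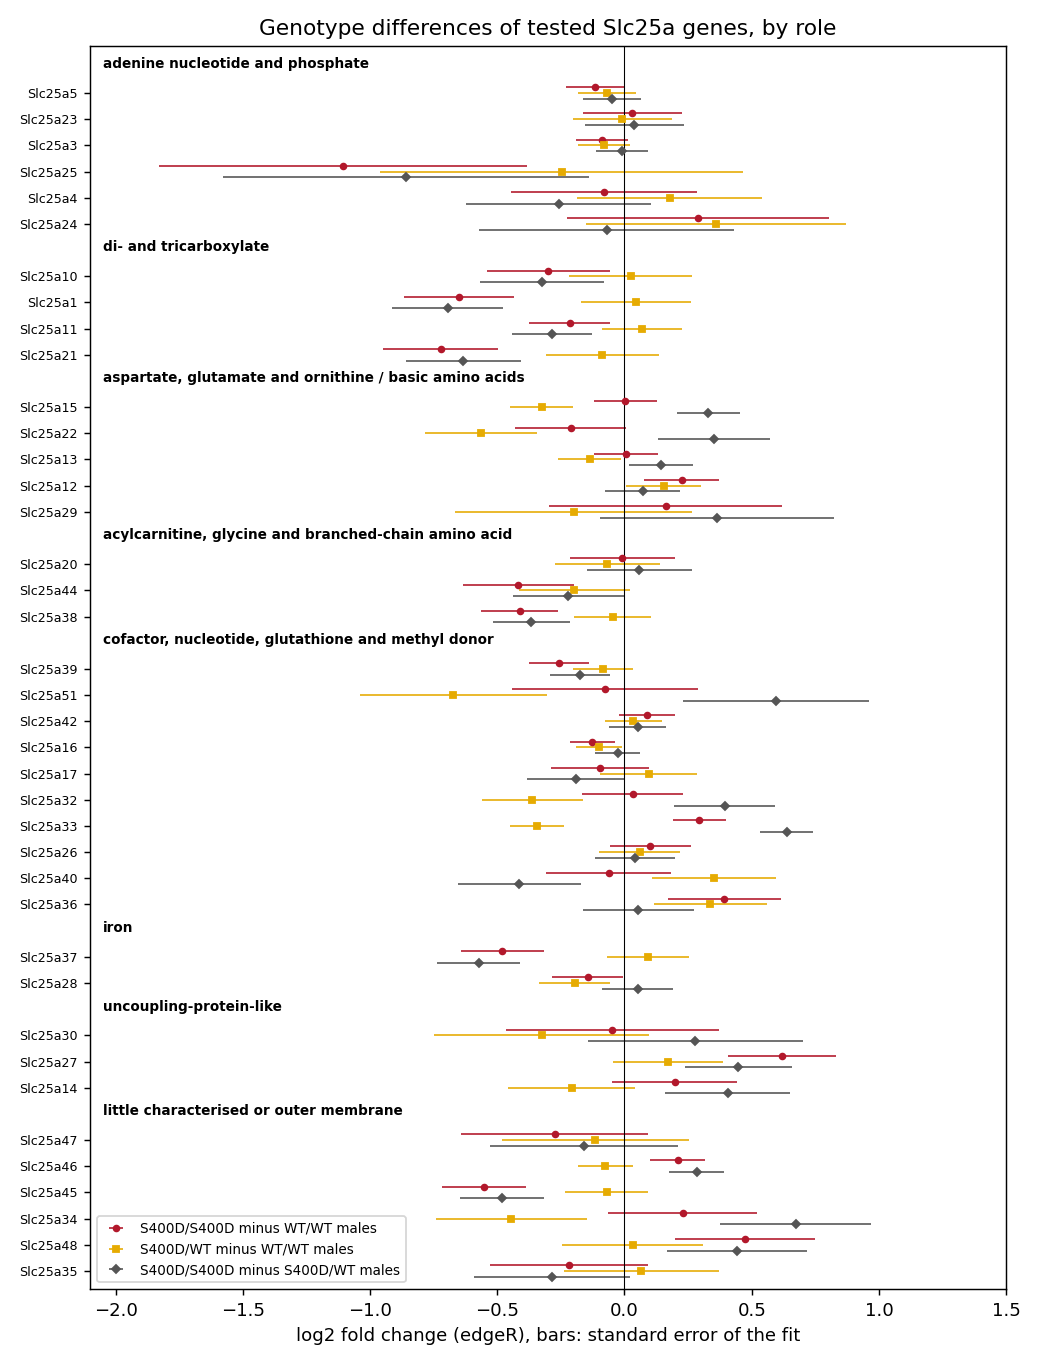
Log2 fold changes of tested carriers between the 3 male genotypes, from edgeR, with bars of 1 standard error, grouped by the role of the carrier; each colour is a comparison. The citrate, oxodicarboxylate, mitoferrin 1 and glycine carriers lie left of 0 in both comparisons of homozygous males, and Slc25a33 (0.29, -0.34 and 0.64) has short bars on both sides of 0.

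The only carrier that changed past the adjusted threshold was Slc25a33, which fell in the S400D/S400D female relative to the S400D/S400D males. Slc25a33 (chr4:149744036-149774267, gene identifier 70556) encodes a pyrimidine nucleotide carrier, which exchanges uracil and thymine nucleotides across the inner membrane. It measured 7.72 CPM in the S400D/S400D female, against 20.8, 24.2 and 23.4 CPM in S400D/S400D males. The female value was under each of the 9 males. In edgeR's fit of all 10 livers and 12954 genes this was a log2 fold change of -1.56 (SE 0.165, adjusted p = 0.00938), and 0.0463% of all genes passed in this direction and 0.0309% in the other. The call held in all 8 other analyses, with adjusted p of 9.16e-10 to 0.0192, and in all 9 omissions of a male, with adjusted p of 0.011 to 0.0463. With 1 female in the series and no WT/WT female, sex, the individual and the state of the liver at collection cannot be told apart, and the fit assumes that females vary as the males do.

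Among males Slc25a33 was ordered by group without overlap in CPM; in TPM the second heterozygous male (13.02) lay just above the second WT/WT male (13.01). It measured 20.8, 24.2 and 23.4 CPM in S400D/S400D males, 15.2, 15.5 and 13.4 CPM in S400D/WT males and 19.9, 17.8 and 18.3 CPM in WT/WT males, with the heterozygous males lowest. In edgeR the difference of homozygous from heterozygous males was log2 fold change 0.64, SE 0.104, adjusted p = 0.104, that of homozygous from WT/WT males log2 fold change 0.29, SE 0.104, adjusted p = 0.263 and that of heterozygous from WT/WT males log2 fold change -0.34, SE 0.105, adjusted p = 0.972. DESeq2 gave 0.64 with an adjusted p of 0.000715 for the first of these, and the adjusted p over the other analyses reached 0.207. The second heterozygous male, with Arntl at 31.5 CPM like the homozygous males, had 15.5 CPM of Slc25a33, as the other heterozygous males. The part of the clock state in Slc25a33 among males was not tested. Slc25a36, the second pyrimidine nucleotide carrier, measured 5.11 CPM in the S400D/S400D female, 4.34, 3.57 and 3.43 CPM in S400D/S400D males, 3.13, 4.19 and 3.61 CPM in S400D/WT males and 3.28, 3.15 and 2.22 CPM in WT/WT males, so the female was the highest of all 10 livers for Slc25a36 and the lowest for Slc25a33. Neither its difference between female and homozygous males (0.43, SE 0.296, adjusted p = 0.671 in edgeR) nor those between male genotypes passed.

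The female liver was lowest for Slc25a33 and highest for Slc25a36. It also stood at opposite ends for the uncoupling-protein-like Slc25a14 (1.48 CPM, lowest) and Slc25a27 (7.72 CPM, highest). For the first pair, the 2 pyrimidine nucleotide carriers, the promoters are shown. Each runs from 250 bases before to 50 bases after the RefSeq transcript start in GRCm38.p6, 5′ to 3′ on the minus strand, with the E-box CACGTG, the letters bound by clock and other basic helix-loop-helix factors, in capitals.
Slc25a33 (chr4:149774218-149774517): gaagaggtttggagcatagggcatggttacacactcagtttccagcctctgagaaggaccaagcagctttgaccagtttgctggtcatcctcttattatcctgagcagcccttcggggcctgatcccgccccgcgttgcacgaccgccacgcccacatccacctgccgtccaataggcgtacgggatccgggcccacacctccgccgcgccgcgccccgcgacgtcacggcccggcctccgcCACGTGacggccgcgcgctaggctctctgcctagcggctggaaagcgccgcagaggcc
Slc25a36 (chr9:97110992-97111291): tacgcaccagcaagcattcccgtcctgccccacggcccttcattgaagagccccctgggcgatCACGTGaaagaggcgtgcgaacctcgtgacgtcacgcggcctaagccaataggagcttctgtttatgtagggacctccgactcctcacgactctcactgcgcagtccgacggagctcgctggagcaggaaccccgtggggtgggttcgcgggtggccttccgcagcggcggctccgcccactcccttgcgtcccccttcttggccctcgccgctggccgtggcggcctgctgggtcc
Both windows hold CACGTG, with G and C making up 66.0% of the bases of Slc25a33 and 66.7% of those of Slc25a36. Over the family, 35 of 46 carriers had a promoter in the RefSeq table, and CACGTG, which reads alike on both strands, stood in 7 of them (20.0%), against 8.09% of 27025 genes with such a window. The 7 were Slc25a1, Slc25a13, Slc25a14, Slc25a15, Slc25a31, Slc25a33 and Slc25a36. The NRF1 motif, GCGCA and GCGC with any base between, stood in 2 (Slc25a3 and Slc25a31; 5.71%, against 5.19%), and the D-box TTATGTAA and the ERR half-site TNAAGGTCA in 0 (against 1.11% and 1.43%), searched on both strands. The window of Slc25a47 held none of these motifs. A match is a description of the letters and not a bound site.

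**Figure D3:**
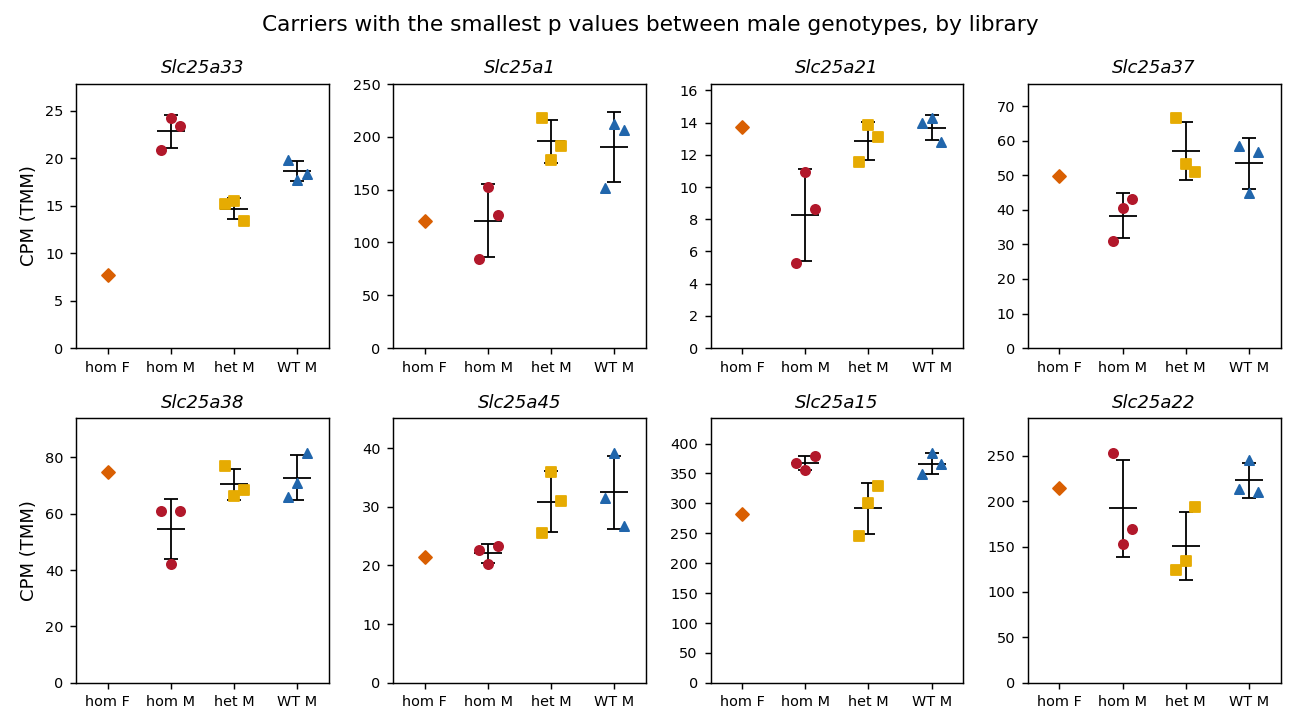
CPM (TMM-scaled) of 8 carriers in each liver, with the homozygous female (hom F), homozygous males (hom M), heterozygous males (het M) and WT/WT males (WT M) from left to right; bars are the mean ± SD of 3 males. The female stands at 7.72 CPM for Slc25a33, under every male, and for Slc25a21, Slc25a37, Slc25a38 and Slc25a45 the homozygous males lie under both other male groups.

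The di- and tricarboxylate carriers were, of the 8 role groups, the one with the lowest median fold change between homozygous and WT/WT males. All 4 had negative log2 fold changes against WT/WT males, with a median of -0.47, and 2 of 4 had an unadjusted p under 0.05 (of all genes tested, 49.3% had a negative fold change and 8.08% were lower at that p). Slc25a1, which exports citrate for fatty acid and sterol synthesis, measured 121 CPM in the S400D/S400D female, 83.9, 153 and 126 CPM in S400D/S400D males, 218, 178 and 192 CPM in S400D/WT males and 152, 212 and 206 CPM in WT/WT males. The homozygous males lay under all heterozygous males and, but for 1 pair, under the WT/WT males (log2 fold change -0.65, SE 0.217, adjusted p = 0.254 in edgeR). Slc25a21, the oxodicarboxylate carrier that takes up 2-oxoadipate from lysine and tryptophan breakdown, measured 13.7 CPM in the S400D/S400D female, 5.25, 11.0 and 8.61 CPM in S400D/S400D males, 11.6, 13.9 and 13.1 CPM in S400D/WT males and 14.0, 14.3 and 12.8 CPM in WT/WT males. Its homozygous males lay under all other livers (log2 fold change -0.72, SE 0.226, adjusted p = 0.239 against WT/WT males). The first homozygous male was the lowest for both genes, and without it the log2 fold changes were -0.45 and -0.48. Slc25a10, the dicarboxylate carrier, and Slc25a11, the oxoglutarate carrier, ran from 132 to 265 CPM and from 45.7 to 80.7 CPM over the 10 livers. The male groups overlapped for both, and the female was the highest of the 10 livers for both.

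The genes of citrate formation and use in the cytosol also had lower fitted levels in homozygous males, in 6 of 6 against WT/WT males, with a median of -0.88 and 3 of 6 at an unadjusted p under 0.05, against 49.3% and 8.08% of all genes tested. None passed the adjusted threshold. Acly, the ATP-citrate lyase that splits the exported citrate, measured 78.1, 197 and 184 CPM in S400D/S400D males, against 357, 416 and 313 CPM in S400D/WT males and 215, 388 and 451 CPM in WT/WT males (log2 fold change -1.20 against WT/WT males, SE 0.361, adjusted p = 0.229 in edgeR). Me1, the cytosolic malic enzyme, and Fasn, fatty acid synthase, had log2 fold changes of -1.10 (SE 0.328, adjusted p = 0.227) and -1.53 (SE 0.530, adjusted p = 0.26). Between heterozygous and WT/WT males 3 of the 6 were higher and 3 lower (51.6% and 48.4% of all genes tested), with a median of -0.01.

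Both iron carriers and the glycine carrier, which feed haem and iron-sulfur cluster synthesis, had lower fitted levels in homozygous than in WT/WT males, and none passed the adjusted threshold. Slc25a37, mitoferrin 1, the form of erythroid cells, measured 49.7 CPM in the S400D/S400D female, 30.9, 40.6 and 43.2 CPM in S400D/S400D males, 66.5, 53.3 and 51.0 CPM in S400D/WT males and 58.5, 44.9 and 56.9 CPM in WT/WT males. The homozygous males lay under both other male groups (log2 fold change -0.48, SE 0.163, adjusted p = 0.258 against WT/WT males and log2 fold change -0.57, SE 0.163, adjusted p = 0.148 against heterozygous males in edgeR), and the unadjusted p against WT/WT males was 0.0518 without the first of them, 0.0547 without the first WT/WT male and 0.0523 without the third. Slc25a38, which imports glycine for haem synthesis, measured 74.8 CPM in the S400D/S400D female, 60.8, 42.2 and 60.8 CPM in S400D/S400D males, 76.8, 66.3 and 68.3 CPM in S400D/WT males and 66.0, 70.9 and 81.6 CPM in WT/WT males (log2 fold change -0.41 against WT/WT males, SE 0.152, adjusted p = 0.274). That log2 fold change was -0.26 without the second homozygous male and -0.31 without the third WT/WT male, with unadjusted p of 0.0646 and 0.109, and -0.25 with limma on log2(FPKM + 1). Slc25a28, mitoferrin 2, the form of other tissues, ran from 14.1 to 20.5 CPM with the male groups overlapping.

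All 5 tested of the 7 erythroid markers had lower fitted levels in homozygous than in WT/WT males, 1 of them at an unadjusted p under 0.05 (49.3% and 8.08% of all genes tested). That was Alas2, the erythroid enzyme of haem synthesis, with 15.4 CPM in the S400D/S400D female, 13.5, 59.6 and 51.2 CPM in S400D/S400D males, 109, 88.0 and 99.1 CPM in S400D/WT males and 121, 112 and 65.3 CPM in WT/WT males. The haemoglobin transcript Hbb-bs was high in the first WT/WT male (698 CPM) and the third heterozygous male (646 CPM), where Slc25a37 measured 58.5 and 51.0 CPM, and low in the second WT/WT male (17.2 CPM), where it measured 44.9 CPM. It was also low in the first heterozygous male (34.3 CPM) and the third WT/WT male (57.7 CPM), where Slc25a37 measured 66.5 CPM, the highest of the 10 livers, and 56.9 CPM. The part of erythroid cells in the values of Slc25a37 and Slc25a38 was not tested.

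Among carriers of aspartate, glutamate and basic amino acids, Slc25a15 and Slc25a22 were lowest in heterozygous males. Slc25a15, which exchanges ornithine for citrulline in the urea cycle, measured 282 CPM in the S400D/S400D female, 367, 355 and 378 CPM in S400D/S400D males, 246, 301 and 329.7 CPM in S400D/WT males and 349.7, 384 and 366 CPM in WT/WT males. The heterozygous males lay under both other male groups (log2 fold change -0.33, SE 0.125, adjusted p = 0.972 against WT/WT males; homozygous against heterozygous males log2 fold change 0.33, SE 0.125, adjusted p = 0.232, in edgeR). Slc25a22, which imports glutamate, measured 215 CPM in the S400D/S400D female, 253, 153 and 169.6 CPM in S400D/S400D males, 125, 134 and 193 CPM in S400D/WT males and 213, 245 and 209.6 CPM in WT/WT males. Its heterozygous males lay under the WT/WT males (log2 fold change -0.56, SE 0.22, adjusted p = 0.972), and the homozygous males spanned both ranges. Without the first heterozygous male the unadjusted p against WT/WT males was 0.106 for Slc25a15 and 0.104 for Slc25a22. Slc25a13, the aspartate-glutamate carrier of the malate-aspartate shuttle, ran from 164 to 214 CPM in the males and measured 263 CPM in the female, the highest value of the 10 livers (log2 fold change 0.42 against homozygous males, SE 0.174, adjusted p = 0.45 in edgeR). Slc25a12 ran from 12.5 to 20.7 CPM and Slc25a29 from 1.29 to 5.20 CPM, with the male groups overlapping.

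The enzymes that these carriers serve did not pass either. Of the 6 urea cycle enzymes 4 had higher and 2 lower fitted levels in homozygous than in WT/WT males (50.7% and 49.3% of all genes tested). At an unadjusted p under 0.05, 1 was lower (8.08% of all genes tested). That was Otc, ornithine transcarbamylase, which makes the citrulline that Slc25a15 exports, with 341, 408 and 451 CPM in S400D/S400D males, against 561, 545 and 508 CPM in WT/WT males (log2 fold change -0.42, SE 0.127, adjusted p = 0.227 in edgeR), whereas Slc25a15 itself differed by 0.00 (SE 0.125). All 6 had lower fitted levels in heterozygous than in WT/WT males (48.4% of all genes tested), with a median of -0.25. None had an unadjusted p under 0.05 (2.52% of all genes tested were lower at that p). Of the 4 malate-aspartate shuttle enzymes 3 had lower fitted levels in homozygous than in WT/WT males (49.3% of all genes tested). Among them was Mdh1, the cytosolic malate dehydrogenase, with 441, 509.6 and 562 CPM in S400D/S400D males, against 602, 656 and 694 CPM in WT/WT males (log2 fold change -0.36, SE 0.125, adjusted p = 0.258 in edgeR). Got1, the cytosolic aspartate transaminase, measured 190.2, 194 and 242 CPM in S400D/WT males, against 271, 429.6 and 425 CPM in WT/WT males (log2 fold change -0.84, SE 0.283, adjusted p = 0.972). In S400D/S400D males it measured 711.9, 354.5 and 384.8 CPM (log2 fold change 1.21 against heterozygous males, SE 0.285, adjusted p = 0.116 in edgeR).

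The main carriers of oxidative phosphorylation varied little between livers. Slc25a5 measured 376 CPM in the S400D/S400D female, 377, 387 and 383 CPM in S400D/S400D males, 393, 351 and 444 CPM in S400D/WT males and 397, 415 and 433 CPM in WT/WT males. The homozygous males lay close together and under all WT/WT males, but the log2 fold change was -0.12 (SE 0.114, adjusted p = 0.648 in edgeR). Slc25a3, the phosphate carrier of ATP synthesis, measured 275 CPM in the S400D/S400D female, 292, 271 and 288 CPM in S400D/S400D males, 293, 261 and 303 CPM in S400D/WT males and 289, 304 and 314 CPM in WT/WT males, and its highest liver was 1.20 times its lowest, the narrowest of the 38 carriers with at least 1 CPM everywhere. Slc25a23, which exchanges ATP-Mg for phosphate, measured 262 CPM in the S400D/S400D female, 231, 428 and 329 CPM in S400D/S400D males, 328, 308 and 327 CPM in S400D/WT males and 344, 299 and 327 CPM in WT/WT males, and among the males only the homozygous ones were spread widely. Slc25a4, a minor translocase in liver, measured 4.54 CPM in the S400D/S400D female, 2.28, 5.21 and 4.10 CPM in S400D/S400D males, 3.87, 4.07 and 5.92 CPM in S400D/WT males and 5.69, 3.99 and 2.58 CPM in WT/WT males, and was among the 3 most variable of these 38 carriers between WT/WT males (coefficient of variation 38.0%). Slc25a24 ran from 0.450 to 1.82 CPM.

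Slc25a25, a calcium-regulated ATP-Mg/phosphate carrier, had the largest ratio of highest to lowest liver among the 38 carriers with at least 1 CPM everywhere. It measured 68.5 CPM in the S400D/S400D female, 119, 106 and 130.2 CPM in S400D/S400D males, 19.2, 276 and 348 CPM in S400D/WT males and 260.2, 264 and 239.9 CPM in WT/WT males. The first heterozygous male stood at 19.2 CPM, 18.1 times under the highest liver, the female and the homozygous males formed a middle range, and the other 5 livers lay from 239.9 to 348 CPM. The homozygous males were under all WT/WT males, with a log2 fold change of -1.11 that did not pass (SE 0.722, adjusted p = 0.493 in edgeR), and this SE shares the spread of the heterozygous group. The first heterozygous male was not deviant in Slc25a23, at 328 CPM. Its Slc25a25 counts came from the same leading transcript as elsewhere, which held 93.8 to 100% of the gene's counts in every library.

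The carriers of fatty acid oxidation and branched-chain amino acids showed no male difference past any threshold used here. Slc25a20, the carnitine-acylcarnitine carrier, ran from 86.2 to 146 CPM in the males with all groups overlapping and measured 179 CPM in the female, the highest of the 10 livers (log2 fold change 0.64 against homozygous males, SE 0.282, adjusted p = 0.481 in edgeR). Slc25a44, which carries branched-chain amino acids, ran from 49.7 to 92.1 CPM. Of the 5 carnitine shuttle enzymes 4 had higher fitted levels in homozygous than in WT/WT males (50.7% of all genes tested). At an unadjusted p under 0.05, 1 was higher (6.82% of all genes tested). Crat, carnitine acetyltransferase, measured 97.2, 54.6 and 62.8 CPM in S400D/S400D males, against 35.6, 15.8 and 25.2 CPM in WT/WT males (log2 fold change 1.49, SE 0.364, adjusted p = 0.187 in edgeR). Cpt1a, the outer membrane palmitoyltransferase, differed by 1.02 between the female and the homozygous males (SE 0.376, adjusted p = 0.398).

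Carriers of cofactors, nucleotides, glutathione and methyl donors were, Slc25a33 aside, without a member at an unadjusted p under 0.05 in any comparison. Slc25a39, which imports glutathione, measured 279.8 CPM in the S400D/S400D female, 239, 271 and 246 CPM in S400D/S400D males, 312, 250.1 and 293 CPM in S400D/WT males and 293, 322 and 293 CPM in WT/WT males. The homozygous males lay under all WT/WT males but overlapped the heterozygous males (log2 fold change -0.26 against WT/WT males, SE 0.117, adjusted p = 0.343 in edgeR). Slc25a51, the NAD carrier, was highest in the first homozygous male at 193 CPM and ran from 58.6 to 140.1 CPM in the other 9 livers. Its heterozygous males, at 63.4, 71.0 and 92.3 CPM, lay under the WT/WT males, at 108, 113 and 140.1 CPM. That log2 fold change, -0.67 (SE 0.367, adjusted p = 0.972 in edgeR), was the lowest of the tested carriers in this comparison. The folate carrier Slc25a32 ran from 18.4 to 36.9 CPM, the coenzyme A carrier Slc25a42 from 88.5 to 112 CPM, Slc25a16 from 55.2 to 67.7 CPM, the peroxisomal Slc25a17 from 32.2 to 59.5 CPM, the S-adenosylmethionine carrier Slc25a26 from 5.92 to 8.14 CPM and Slc25a40 from 2.57 to 4.31 CPM.

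The little characterised members and those of the outer membrane or of uncoupling-protein type held the remaining values. Slc25a45, a carrier of less well described substrate, measured 21.5 CPM in the S400D/S400D female, 22.6, 20.3 and 23.4 CPM in S400D/S400D males, 25.6, 35.9 and 31.0 CPM in S400D/WT males and 31.4, 39.2 and 26.7 CPM in WT/WT males. Its homozygous males and the female lay under all other livers, and it had the smallest p of any carrier between homozygous and WT/WT males (log2 fold change -0.55, SE 0.165, adjusted p = 0.227 in edgeR). Slc25a46, an outer membrane member that acts in mitochondrial dynamics, measured 41.7 CPM in the S400D/S400D female, 40.8, 46.4 and 39.0 CPM in S400D/S400D males, 31.1, 33.6 and 39.0 CPM in S400D/WT males and 35.4, 36.2 and 37.8 CPM in WT/WT males (log2 fold change 0.28 between homozygous and heterozygous males, SE 0.109, adjusted p = 0.235). Slc25a27, related to the uncoupling proteins and known from brain, measured 7.72 CPM in the S400D/S400D female, 7.37, 4.98 and 5.18 CPM in S400D/S400D males, 3.56, 4.72 and 4.56 CPM in S400D/WT males and 3.46, 3.67 and 4.31 CPM in WT/WT males. The female and the homozygous males lay above all other livers, with a log2 fold change of 0.62 for homozygous against WT/WT males (SE 0.213, adjusted p = 0.259), and without the first homozygous male the unadjusted p was 0.0811.

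Slc25a34 measured 14.1 CPM in the S400D/S400D female, 9.71, 7.09 and 4.58 CPM in S400D/S400D males, 4.85, 3.78 and 4.79 CPM in S400D/WT males and 6.51, 4.31 and 7.45 CPM in WT/WT males. The female was the highest, and the homozygous males overlapped both other male groups (homozygous against heterozygous males log2 fold change 0.67, SE 0.296, adjusted p = 0.287 in edgeR); without the first homozygous male that log2 fold change was 0.38 with an unadjusted p of 0.219. Slc25a30, another uncoupling-protein relative, measured 5.96 CPM in the S400D/S400D female, 6.91, 9.25 and 13.1 CPM in S400D/S400D males, 7.86, 6.14 and 10.1 CPM in S400D/WT males and 11.0, 15.2 and 4.12 CPM in WT/WT males. Of the 38 carriers with at least 1 CPM in every liver it was the most variable between WT/WT males, with a coefficient of variation of 55.3%, and the third WT/WT male was the lowest of all livers. Slc25a14 ran from 1.48 to 2.86 CPM, Slc25a35 from 0.681 to 2.07 CPM and Slc25a48 from 4.63 to 10.9 CPM.

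Slc25a47, the most abundant carrier after Slc25a5, measured 519 CPM in the S400D/S400D female, 489, 259.8 and 262 CPM in S400D/S400D males, 413, 182 and 535 CPM in S400D/WT males and 398, 396 and 431 CPM in WT/WT males. The WT/WT males agreed closely, whereas the second and the third homozygous males and the second heterozygous male were low; these are 3 of the 4 male livers with high Arntl, and the first homozygous male is the other one. The log2 fold change of homozygous against WT/WT males was -0.27 (SE 0.368, adjusted p = 0.749 in edgeR). The part of the clock state in the values of Slc25a47 was not tested.

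**Figure D4:**
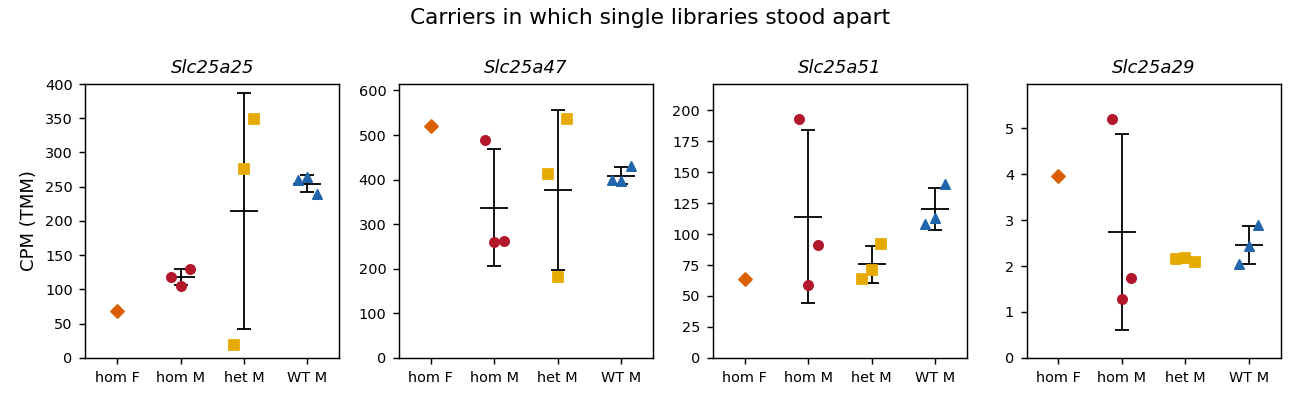
CPM (TMM-scaled) in each liver of 4 carriers in which single libraries stood apart, with the homozygous female (hom F), homozygous males (hom M), heterozygous males (het M) and WT/WT males (WT M) from left to right and bars of mean ± SD over 3 males. Slc25a25 of 1 heterozygous male is at 19.2 CPM, Slc25a47 has 3 low male livers, and the first homozygous male is the highest for Slc25a51 (193 CPM) and Slc25a29 (5.20 CPM).

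Across the 38 carriers with at least 1 CPM in every liver, the highest liver was a median 1.97 times the lowest. The ratio was under 1.5 in 8 carriers and over 3 in 6. The first homozygous male was the lowest of the 10 livers in 11 carriers and the highest in 7, more extremes than any other library (2 to 10 each). Its lowest values included Slc25a1, Slc25a21, Slc25a37 and Slc25a23, and its highest Slc25a51, Slc25a29 and Slc25a22. The median coefficient of variation within groups was 17.6% in homozygous, 11.8% in heterozygous and 11.3% in WT/WT males. Without the first homozygous male, 9 carriers instead of 7 had an unadjusted p under 0.05 between homozygous and WT/WT males, and 0 passed the adjusted threshold. Over all genes tested, 1577 of 12579 instead of 1852 of 12427 had such an unadjusted p.

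Between the homozygous female and the homozygous males, 4 carriers besides Slc25a33 had an unadjusted p under 0.05, all higher in the female (10% of 40, against 5.21% of all genes tested), and the 1 lower carrier was Slc25a33 (2.5%, against 5.13%). The 4 were Slc25a34 (log2 fold change 0.99, SE 0.378), Slc25a21 (0.73, SE 0.303), Slc25a20 (0.64, SE 0.282) and Slc25a13 (0.42, SE 0.174), with adjusted p of 0.414 to 0.481 in edgeR. The count of 5 was 3 without the third male of any 1 of the male groups. By sign alone 23 carriers were higher and 17 lower in the female (48.2% and 51.7% of all genes). The median log2 fold change of the 40 carriers was 0.07, against -0.01 over all genes. Clock genes also set the female apart from these males, with Arntl at 1.59 CPM and Dbp at 205 CPM, and their part in the differences was not tested.

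Genes that act beside the carriers gave no call between male genotypes at the adjusted threshold in edgeR. Of 13 tested genes of carrier import through TOM70 and TIM22, 12 had lower fitted levels in homozygous than in WT/WT males, with a median log2 fold change of -0.14 and 1 at an unadjusted p under 0.05, against 49.3% and 8.08% of all genes tested. That was Tomm40, the pore of the outer membrane translocase, with 38.1, 33.8 and 28.5 CPM in S400D/S400D males, against 44.2, 41.9 and 37.6 CPM in WT/WT males (-0.30, SE 0.131, adjusted p = 0.333). Timm29, a subunit of the TIM22 complex, was the gene of this list with an unadjusted p under 0.05 in the other direction, between homozygous and heterozygous males (0.29, SE 0.115, adjusted p = 0.245). Among 9 tested pyruvate carriers, sideroflexins and porins, Vdac1, the main outer membrane channel for metabolites, measured 151, 193 and 199 CPM in S400D/S400D males, against 210, 242 and 243 CPM in WT/WT males (-0.35, SE 0.136, adjusted p = 0.285), and Vdac2 differed by -0.21 (SE 0.093, adjusted p = 0.329). Sfxn2, a sideroflexin, measured 84.7, 66.8 and 70.5 CPM in S400D/S400D males, against 49.4, 56.1 and 52.6 CPM in S400D/WT males and 55.6, 58.8 and 63.3 CPM in WT/WT males (0.32 against WT/WT males, SE 0.111, adjusted p = 0.258, and 0.49 against heterozygous males, SE 0.111, adjusted p = 0.11). Of the carrier family genes without an Slc25a symbol, 3 of 5 were tested (the uncoupling proteins and the outer membrane Mtch genes make up the 5) and 0 had an unadjusted p under 0.05 in any comparison.

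At the level of transcripts, some carriers drew on 1 leading form in every library. The most abundant transcript held 99.6 to 100% of the counts of Slc25a47, 92.9 to 96.4% of Slc25a3, 95.8 to 97.8% of Slc25a23 and 92.8 to 97.7% of Slc25a51. Slc25a11 was divided, with 43.1 to 48.4% in its leading transcript, as was Slc25a38, with 30.4 to 49.7%. The leading share moved most in Slc25a28, from 57.5% in the first heterozygous male to 96.6% in the third, 2 livers of the same group. Slc25a1 was listed as the same transcript at 2 positions with equal counts at each, and only the sum was used.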

How the data were processed

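RNA-seq of liver was deposited as a single table of transcripts in 10 samples, all of which were used. The expected counts (estimated reads per transcript, not normalised), FPKM and TPM in it were computed by the authors. HISAT, Bowtie2 and GRCm38.p6 are named in the submitters' processing notes; versions, the counting program and its use of strand were not given in the sources used here. Reads that near-identical or overlapping genes share were divided by that program, which makes single values of such genes less certain. Per the labels' protocols, mRNA was purified on oligo(dT) beads.

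Transcripts were summed to 19271 genes by gene identifier, of which 19214 matched a RefSeq gene. Of the nonzero sums of expected counts, 94.5% lay within 0.05 of a whole number, and all were rounded before testing. The test was edgeR 4.0.16 (R 4.3.3) with TMM factors, its filter on low counts and a quasi-likelihood fit of the 9 males by genotype (6 residual degrees of freedom) or, for the female, of all 10 samples by group. P-values were adjusted by the Benjamini-Hochberg method over all genes, with a threshold of 0.05. Alternatives were DESeq2 1.42.0, limma-voom 3.58.1, other scaling, filters and samples, a replicate block, removal of a trend on transcript length, limma on log2(FPKM + 1) or log2(FPKM + 0.1), and omission of each male. The fits were tested on simulated data. Counting limits given as 3 counts cover counting error only.

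Members, roles, partner lists and markers were chosen with earlier results of these data known. By rule, values in every liver are given for carriers with an adjusted p under 0.05 in any comparison or an unadjusted p under 0.05 between male genotypes, for the 8 most abundant and for the 3 most variable in WT/WT males among those with at least 1 CPM in every liver, except that 1 of these carriers is not reported here; partner genes are named at an unadjusted p under 0.05. Slc25a25, Slc25a36 and other carriers given by single values were named after their values were seen. Promoter windows are those of RefSeq for GRCm38.p6, for 35 of 46 carriers.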

Additional observations from a re-analysis of the deposited data

How the results depend on the processing

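Slc25a33 kept its lower level in the female under all 8 alternatives and all 9 omissions of a male (log2 fold change -1.64 to -1.34). Omissions of 1 male left 0 carriers past the adjusted threshold between male genotypes (range 0 to 0 in each comparison) and 1 between the female and the homozygous males (1 to 1). DESeq2 called 1 carrier, Slc25a33, between homozygous and heterozygous males (log2 fold change 0.64, adjusted p = 0.000715), where edgeR called 0. Counts of carriers at an unadjusted p under 0.05 over these omissions were 5 to 9 for homozygous against WT/WT males. Of all genes tested, 1121 to 2198 passed in the same omissions. Carrier counts were 1 to 5 for heterozygous against WT/WT males, 5 to 10 for homozygous against heterozygous males and 3 to 7 for the female. The ends for heterozygous against WT/WT males came without the first (5) and the second WT/WT male (1). For these ranges the counts over all genes tested are not given beside them. The count of 3 for heterozygous against WT/WT males was 0 with limma on log2(FPKM + 1), 1 with log2(FPKM + 0.1) and 1 with log2(FPKM + 1) without a filter, and the count of 9 for homozygous against heterozygous males was 5 with only these groups in the fit. For carriers whose groups did not overlap, the share of all genes tested is in brackets. In TPM 7 lay higher and 3 lower in homozygous than in WT/WT males (19.1% and 3.63%). In CPM without TMM factors 4 lay higher and 5 lower (12.2% and 7.24%), against 4 and 8 in TMM-scaled CPM (9.26% and 11.5%). For heterozygous against WT/WT males 1 lay higher and 2 lower in TPM (4.27% and 2.95%), against 0 and 5 in TMM-scaled CPM (4.56% and 5.81%). Without TMM factors 3 lay higher and 3 lower (8.26% and 2.68%). For homozygous against heterozygous males 2 lay lower in TPM (4.75%), against 5 in TMM-scaled CPM (11.7%). The cause was not tested. No result reversed among the 24 carrier differences followed, and 1 passed its threshold only under an alternative. With the replicate number as a block, 7, 3 and 9 carriers had an unadjusted p under 0.05 and 0 an adjusted one, as without it. Correlations of deviations between libraries with the same number ran from -0.435 to 0.21, and 0 of 9 males correlated best with its own number. Such correlations cannot show whether males with the same number shared a litter, a batch or a collection time, none of which the labels give. The same 8 carriers led by FPKM and by TPM. Depth limits the 6 carriers with at most 45 counts in all, of which 5 were tested only in fits without edgeR's filter; their adjusted p between male genotypes were 0.248 to 1 in edgeR without the filter, and DESeq2 gave none.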
